A study of Homo sapiens with 4 samples.

Results

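Goblet cells of the intestinal lining fill their granules with gel mucin and a set of small secreted proteins, and 10 genes for such products were examined here. They were chosen by symbol: the trefoil peptides TFF1, TFF2 and TFF3, the gel mucin MUC2, the mucus proteins FCGBP and CLCA1, the lectins ZG16 and REG4, the small peptide SPINK4 and the disulfide isomerase AGR2. The choice was made with earlier results of these data known. Counts of products set beside shares of all genes are therefore description only. All 13 probe sets annotated to 1 of these symbols were taken, out of 54675 on the array. Of the 10 genes, 9 passed a filter on low signal that left 12264 genes of 19775 named ones. TFF2 did not pass it.

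The cells were T84, a human colorectal carcinoma line that forms a polarised layer on a permeable filter, and their messenger RNA was hybridised to Affymetrix U133 Plus 2.0 arrays. There were 4 groups with 1 array each. The 4-miRNA cells received oligonucleotides for miR-451, miR-338-3p, miR-210 and miR-33a and were collected on day 5, and the 2-miRNA cells received miR-451 and miR-338-3p alone and were collected on day 5. The day 7 control and the day 5 control received a short RNA with little likeness to human microRNAs (miRNAs). All 4 groups were seeded at 500000 cells a well on filters 24 mm across with 0.4 µm pores. All were transfected with 15 pmol of oligonucleotide, so there was no untransfected group. T84 is a single tumour-derived line, with no other cell types and no lumenal bacteria.

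Mucus is a network of MUC2, a very long glycoprotein that is folded and linked through disulfide bonds in the endoplasmic reticulum, packed into granules and unfolded outside the cell. Trefoil peptides are small, compact and rich in cysteine, are released together with mucins and help the epithelium to reseal after injury. The other products modify or guard the gel: some are built into it, some cut it, and some bind bacteria.

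miRNAs pair with messenger RNAs mainly through bases 2 to 8, the seed. The mature sequences from RefSeq (GRCh38.p14) are shown because they are what distinguishes the groups, with the seed in capitals. The labels name the arm for miR-338-3p alone, and for the other 2 the arm that the name without an arm usually stands for is printed. The 3 seeds differ, so these miRNAs fall into 3 seed groups. Within the 4-miRNA mix, miR-210 and miR-33a are what the 2-miRNA mix lacked. miR-451 is named only.
hsa-miR-338-3p: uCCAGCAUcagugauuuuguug
hsa-miR-210-3p: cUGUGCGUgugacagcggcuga
hsa-miR-33a-5p: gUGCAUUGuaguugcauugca

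The signal of each array was scaled to a common trimmed mean of 500. Before scaling, the trimmed mean was 150 on the 4-miRNA array, 147 on the 2-miRNA array, 74.3 in the day 7 control and 76.6 in the day 5 control. The arrays therefore form a brighter pair with miRNAs and a dimmer pair of controls, and brightness and miRNA treatment cannot be told apart. Within each pair the brightness was close, at a ratio of 1.02 for the 4-miRNA over the 2-miRNA array and 0.970 for the day 7 over the day 5 control. With 1 array a group there is no test and no p-value, and a difference between arrays may be that of any pair of cultures. Differences are log2 differences of scaled signal plus 32, and 2-fold means a log2 difference of 1. As a measure of probe set error, the SD between a gene's own probe sets was 0.27 between the controls, 0.18 between the miRNA arrays and 0.51 to 0.58 between a miRNA array and a control, over 2625 genes with a pair of bright probe sets. In these bulk samples, fewer goblet-like cells and less RNA per cell cannot be told apart.

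Epithelial identity was clear on every array. All 10 colon epithelium markers, among them EPCAM, CDH1, VIL1, KRT20 and CDX2, lay above the array median on all 4 arrays. Markers of other cells were mostly dim: 1 of 8 fibroblast genes, 1 of 5 leukocyte genes and 1 of 4 endothelial genes lay above the median on all 4 arrays, and none of these lists had a value of exactly 0. The summed scaled signal over the arrays was 473 to 868 for the fibroblast list, 278 to 532 for the leukocyte list and 219 to 367 for the endothelial list. For the epithelial list the sum was 169607 to 225806. The part of those markers in the results was not tested.

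**Figure D1:**
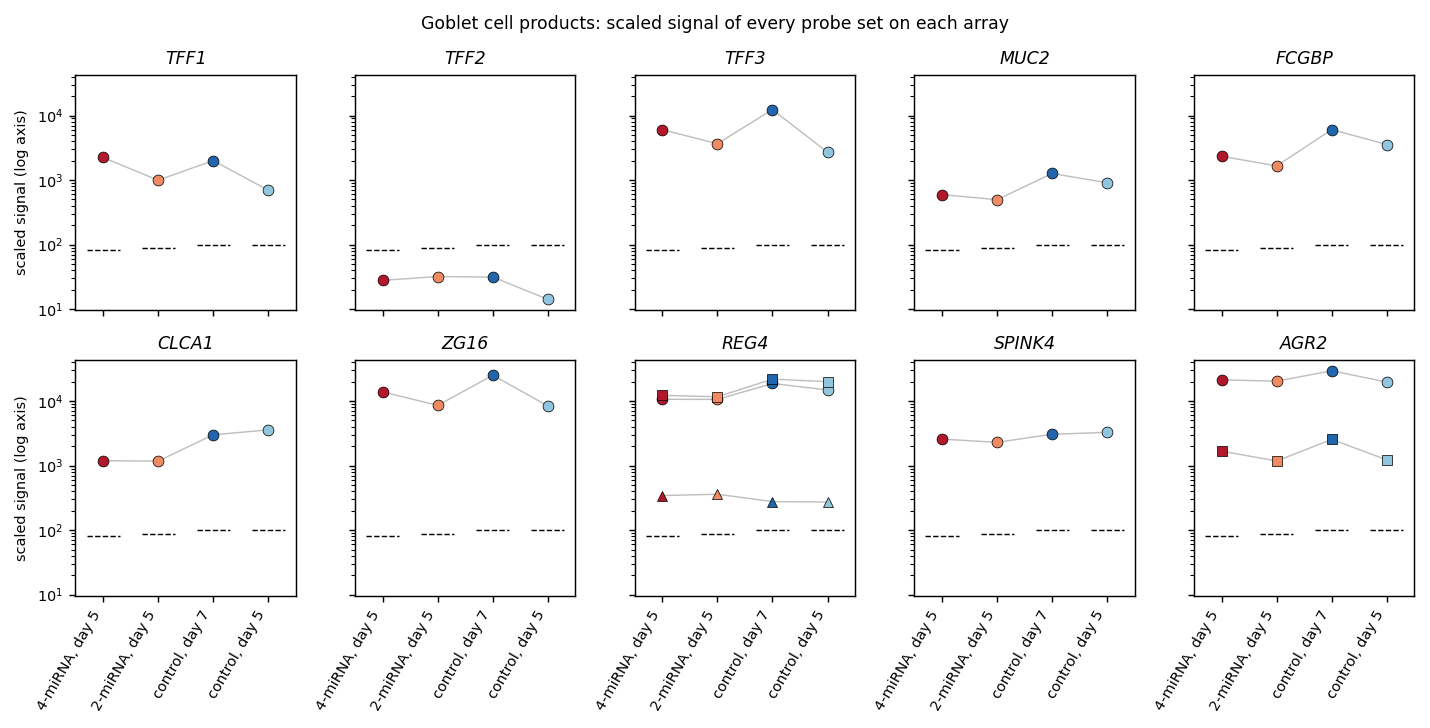
Scaled signal (log axis) of each probe set of the 10 goblet cell product genes by array, from left the 4-miRNA cells, the 2-miRNA cells, the day 7 control and the day 5 control, 1 point an array, with a different marker shape for each probe set of REG4 and AGR2. Dashed lines are the median of all probe sets on that array. TFF2 lies below the median on every array, and every other gene lies above it on every array.

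Of the 3 trefoil peptides, TFF1 and TFF3 lay above the array median on every array and TFF2 below it on every array. TFF3, the trefoil peptide of intestinal goblet cells, had a scaled signal of 6021 on the 4-miRNA array, 3663 on the 2-miRNA array, 12339 in the day 7 control and 2696 in the day 5 control. The day 7 control was the highest array and the day 5 control the lowest, with the miRNA arrays between them. TFF1, best known from the stomach surface and from estrogen-responsive breast cancer cells, had 2239.8 on the 4-miRNA array, 995 on the 2-miRNA array, 2002 in the day 7 control and 697 in the day 5 control. Here the 4-miRNA array was the highest, slightly above the day 7 control, and the day 5 control was again the lowest. TFF2, a peptide of gastric neck and duodenal glands, had 27.9 on the 4-miRNA array, 32.01 on the 2-miRNA array, 31.4 in the day 7 control and 14.2 in the day 5 control. All 4 lay below their array's median, which was between 81.6 and 99.3, so no fold is given for it. All 3 genes lie on chromosome 21 in the NCBI gene table.

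MUC2, the gel-forming mucin itself, had a scaled signal of 595 on the 4-miRNA array, 497 on the 2-miRNA array, 1264 in the day 7 control and 907 in the day 5 control. FCGBP, a large protein with mucin-like assembly domains that is bound into the MUC2 network, had 2337 on the 4-miRNA array, 1657 on the 2-miRNA array, 6057 in the day 7 control and 3556 in the day 5 control. CLCA1, a secreted metalloprotease that cuts MUC2 and loosens the gel, had 1189 on the 4-miRNA array, 1176 on the 2-miRNA array, 2998 in the day 7 control and 3580.0 in the day 5 control. All 3 were lower on both miRNA arrays than on both controls. They differed in the controls, where MUC2 and FCGBP were higher on day 7 and CLCA1 was higher on day 5.

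Among the lectins, ZG16, which binds the cell wall of Gram-positive bacteria and keeps them off the epithelium, had a scaled signal of 13859 on the 4-miRNA array, 8575 on the 2-miRNA array, 25146 in the day 7 control and 8379.7 in the day 5 control. Its 2-miRNA value lay within a few percent of the day 5 control, a ratio of 1.02, while the 4-miRNA array lay above both. REG4, a secreted protein with a C-type lectin domain, had 3 probe sets. The brightest gave 12246 on the 4-miRNA array, 11649 on the 2-miRNA array, 21873 in the day 7 control and 20002 in the day 5 control, and the next gave 10653 on the 4-miRNA array, 10614 on the 2-miRNA array, 18728 in the day 7 control and 14871 in the day 5 control. Both were lower on both miRNA arrays than in both controls. The dim one ran the other way, with 344 on the 4-miRNA and 360.0 on the 2-miRNA array, against 277 in the day 7 control and 273 in the day 5 control.

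SPINK4, a goblet cell peptide with a Kazal-type inhibitor domain, had a scaled signal of 2575 on the 4-miRNA array, 2291 on the 2-miRNA array, 3062 in the day 7 control and 3272 in the day 5 control. It had the smallest range of the 9 genes, 0.51 in log2. AGR2, a disulfide isomerase of the endoplasmic reticulum that mice need to make Muc2, had 21318 on the 4-miRNA array, 20349 on the 2-miRNA array, 29451 in the day 7 control and 19689 in the day 5 control by its bright probe set. The dimmer AGR2 probe set gave 1675 on the 4-miRNA array, 1179 on the 2-miRNA array, 2549.5 in the day 7 control and 1225 in the day 5 control. The day 7 control was the highest array by both, while the lowest was the day 5 control by the bright probe set and the 2-miRNA array by the dimmer one.

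Over the 9 genes, 4 orders of the arrays appeared. TFF1, TFF3, ZG16 and AGR2 were lowest in the day 5 control, with the 4-miRNA array highest for TFF1 and the day 7 control highest for the other 3. MUC2, FCGBP and REG4 had both miRNA arrays lowest and the day 7 control highest, and CLCA1 and SPINK4 had both miRNA arrays lowest and the day 5 control highest. The day 7 control was the highest array for 6 of 9 genes (TFF3, MUC2, FCGBP, ZG16, REG4 and AGR2) against 28.1% of all genes. The set with both miRNA arrays below both controls held 5 of 9, against 41% of all genes, a share near that of the array as a whole. The same 5 genes had the 2-miRNA array lowest of the 4, against 30.3% of all genes. None of the 9 had both miRNA arrays above both controls, an order shown by 22.8% of all genes. The day 7 control was highest and the day 5 control lowest for 3 (TFF3, ZG16 and AGR2), against 6.69%. On the 2-miRNA array these 3 exceeded the day 5 control by 0.44, 0.03 and 0.05, less than the probe set SD of 0.58. The dimmer AGR2 probe set had the 2-miRNA array lowest, so the lowest array is not settled for these genes.

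**Figure D2:**
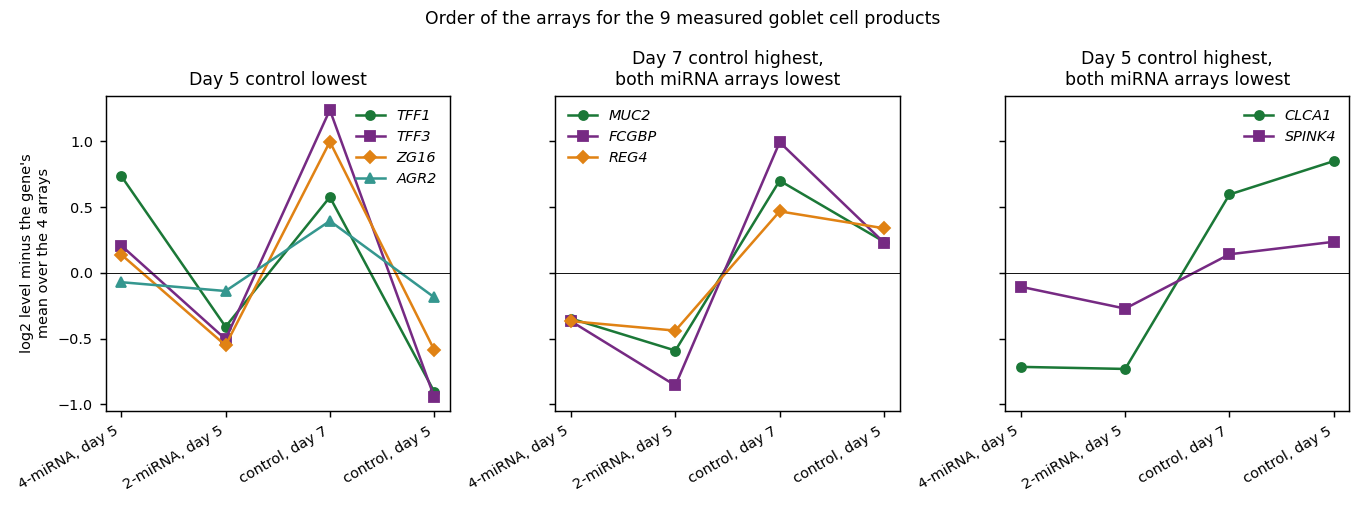
Log2 level of each of the 9 measured genes minus its own mean over the 4 arrays, grouped by the arrays that were lowest and highest, with 1 point an array. TFF1, TFF3 and ZG16 are high in the day 7 control and on the 4-miRNA array relative to the 2-miRNA array and the day 5 control, while CLCA1 separates the miRNA arrays from both controls.

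Promoter sequence is shown for 4 of the 5 genes with both miRNA arrays lowest, since they shared that order. RefSeq promoter entries matched 6 of the 10 genes (MUC2, FCGBP, CLCA1, REG4, SPINK4 and AGR2), and the 250 bases before the start were searched on both strands for TATAA (the core of a TATA box), ACGTG (hypoxia response element), GATAA (GATA factors), TTTATG (CDX factors) and TGTTTAC (FOXA factors). Capitals mark the matches, on the minus strand as their reverse complement, and adjoining or overlapping matches run together. Windows are GRCh38.p14, read 5′ to 3′ on the gene's strand: chr11:1074624-1074873 on the plus strand for MUC2, chr1:86468677-86468926 on the plus strand for CLCA1, chr1:119811461-119811710 on the minus strand for REG4 and chr9:33239917-33240166 on the plus strand for SPINK4.
MUC2: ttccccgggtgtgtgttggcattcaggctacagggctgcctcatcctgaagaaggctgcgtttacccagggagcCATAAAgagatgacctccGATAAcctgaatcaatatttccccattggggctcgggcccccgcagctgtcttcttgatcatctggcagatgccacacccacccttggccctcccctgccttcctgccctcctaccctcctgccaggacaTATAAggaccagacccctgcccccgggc
CLCA1: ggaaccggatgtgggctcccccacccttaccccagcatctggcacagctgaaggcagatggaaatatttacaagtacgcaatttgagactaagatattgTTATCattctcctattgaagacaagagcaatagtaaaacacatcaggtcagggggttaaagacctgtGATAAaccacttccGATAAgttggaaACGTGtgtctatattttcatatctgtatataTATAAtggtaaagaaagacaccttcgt
REG4: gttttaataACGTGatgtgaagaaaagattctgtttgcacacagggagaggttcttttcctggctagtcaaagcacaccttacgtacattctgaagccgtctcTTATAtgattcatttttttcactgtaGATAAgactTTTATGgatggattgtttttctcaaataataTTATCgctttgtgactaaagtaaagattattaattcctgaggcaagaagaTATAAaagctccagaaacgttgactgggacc
SPINK4: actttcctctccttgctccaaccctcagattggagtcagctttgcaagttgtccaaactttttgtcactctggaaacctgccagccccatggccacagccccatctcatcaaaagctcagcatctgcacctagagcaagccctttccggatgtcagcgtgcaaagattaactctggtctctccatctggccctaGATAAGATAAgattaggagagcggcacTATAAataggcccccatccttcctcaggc

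FCGBP shared the order and has a matched window, which is not shown as it held none of the 5 motifs. TATAA was found in 4 of the 6 matched genes, all but FCGBP and AGR2, against 18.9% of all 35116 promoter windows of that length, counted on either strand and anywhere in the window. In the 4 windows shown, a plus-strand TATAA ended 23 to 27 bases before the start, and the share of all windows with one at that place was not computed. The GATA motif GATAA was found in 5 of the 6 matched genes, all but FCGBP, against 20.4% of all windows, with 3 copies in CLCA1 and a tandem pair in SPINK4. ACGTG was found in CLCA1 and REG4 (18.5% of all windows), TTTATG in MUC2, REG4 and AGR2 (9.64%) and TGTTTAC in none of the 6 (2.98%). The matches describe letters in a window and not binding.

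The first comparison, the day 7 control over the day 5 control, concerned 2 further days on the filter. Goblet cell products were mostly higher on day 7, led by TFF3, ZG16 and TFF1, while CLCA1 and SPINK4 were not. Of the 9 measured genes, 3 were at least 2-fold higher, against 3.35% of all genes. At least 2-fold lower were 0, no result at a share of 2.41%. A difference above 0 was found for 7 of 9, against 49.3% of all genes. TFF3 was higher by 2.18 in log2 (a signal ratio of 4.58), and 31 of 12264 genes had a larger positive difference. ZG16 was higher by 1.58, with 101 genes above it, and TFF1 by 1.48, with 132 above it. FCGBP followed at 0.76, AGR2 at 0.58 and MUC2 at 0.46, each larger than the SD of 0.27 between probe sets. The dimmer AGR2 probe set gave 1.04. REG4 at 0.13, SPINK4 at −0.09 and CLCA1 at −0.25 lay within that SD. The median of the 9 was 0.58, beside −0.01 for all genes.

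Set against the day 5 control, the 4-miRNA array concerned the whole mix on the same day. The trefoil peptides TFF1 and TFF3 were higher and the mucus protease CLCA1 was lower. TFF1 was higher by 1.64 (2239.8 against 697) and TFF3 by 1.15 (6021 against 2696), making 2 of 9 genes at least 2-fold higher, against 8.03% of all genes. CLCA1 was lower, at −1.56 (1189 against 3580.0), 1 of 9 at least 2-fold lower against 6.7% of all genes. ZG16 stood at 0.72, AGR2 at 0.11, SPINK4 at −0.34, MUC2 at −0.58, FCGBP at −0.60 and REG4 at −0.71, within 2-fold. The dim REG4 probe set gave 0.30. Here the SD between probe sets was 0.58, so AGR2 and SPINK4 lay inside it and MUC2 and FCGBP were about its size. In all, 4 of 9 genes had a difference above 0 (TFF1, TFF3, ZG16 and AGR2), against 41% of all genes. The median of the 9 was −0.34, beside −0.15 for all genes.

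Against the same control, the 2-miRNA array concerned miR-451 with miR-338-3p. No goblet cell product was at least 2-fold higher, against 8.11% of all genes, a share at which 0 of 9 is no result about the products. CLCA1 (−1.58, 1176 against 3580.0) and FCGBP (−1.09, 1657 against 3556) were at least 2-fold lower, 2 of 9 against 6.37%. CLCA1 was among the lowest genes of the comparison, with 108 of 12264 below it. MUC2 stood at −0.83 and REG4 at −0.78 (0.36 by its dim probe set). SPINK4 (−0.51), TFF1 (0.49) and TFF3 (0.44) lay within the probe set SD of 0.58. ZG16 at 0.03 and AGR2 at 0.05 were close to the control. The same 4 genes lay above 0, against 40.6% of all genes, and the median was −0.51, beside −0.16 for all genes. Both comparisons use the day 5 control array, so their likeness is not independent.

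The 4-miRNA array was then set against the 2-miRNA array, which lacked miR-210 and miR-33a. This pair was alike in brightness and had the smallest probe set SD, 0.18. All 9 genes had a difference above 0, against 50.8% of all genes, although CLCA1 turned to −0.01 with running-median centring, and 1 (TFF1) was at least 2-fold higher, against 1.04%. TFF1 was higher by 1.15 (2239.8 against 995), with 78 genes above it. TFF3 followed at 0.71 (6021 against 3663), ZG16 at 0.69 (13859 against 8575), FCGBP at 0.49 (2337 against 1657) and MUC2 at 0.24 (595 against 497), each larger than that SD. SPINK4 at 0.17, REG4 and AGR2 at 0.07 and CLCA1 at 0.02 lay within it, but the dimmer AGR2 probe set gave 0.49, beyond it. The dim REG4 probe set gave −0.06. No product was at least 2-fold lower, which is no result at a share of 1.33% of all genes. The median was 0.24, beside 0.00 for all genes. Whether the 15 pmol was shared out over a mix was not given in the sources used here, so a lower dose of the miRNAs common to both mixes and the added miRNAs cannot be told apart.

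The products that led between the miRNA arrays, TFF1, TFF3 and ZG16, were also the 3 products that led between the controls. These 2 comparisons share no array, but the share of all genes as high in both was not computed. The absorptive enterocyte genes SLC26A3 (3.76 between the controls, 0.76 between the miRNA arrays) and AQP8 (3.97 and 0.71) exceeded ZG16 in both. The overlap was thus not particular to the products. The order of the 3 products differed: TFF3 was the largest between the controls and TFF1 between the miRNA arrays.

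**Figure D3:**
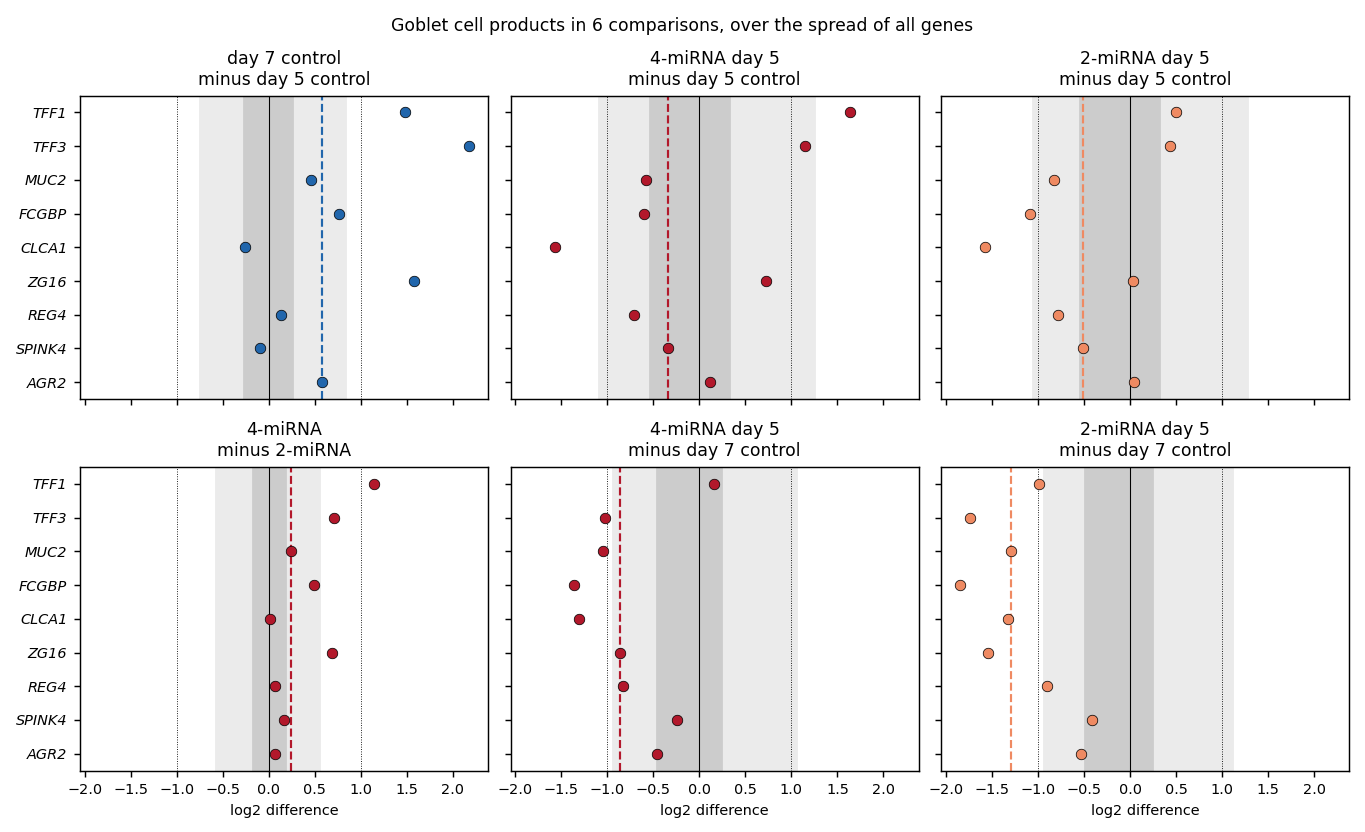
Log2 difference of each of the 9 measured genes (points) in 6 comparisons, with the dashed line at their median and dotted lines at 2-fold. Dark and light grey bands hold the middle 50% and 90% of all 12264 genes. Between the controls TFF3, ZG16 and TFF1 lie right of the light band, between the miRNA arrays the same 3 genes do, and against the day 7 control most genes lie left of the dark band.

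The miRNA arrays of day 5 were also set against the day 7 control, the older layer. Here day and treatment cannot be told apart. On the 2-miRNA array all 9 genes measured were lower than in the day 7 control, against 61.1% of all genes, and 5 were at least 2-fold lower, against 4.03%. These were FCGBP (−1.85, 1657 against 6057), TFF3 (−1.74, 3663 against 12339), ZG16 (−1.55), CLCA1 (−1.33) and MUC2 (−1.29). Only 55 of 12264 genes were lower than FCGBP and 66 lower than TFF3. TFF1 stood at −0.99, REG4 at −0.91, AGR2 at −0.53 (−1.09 by its dimmer probe set) and SPINK4 at −0.41. The dim REG4 probe set went the other way, at 0.34. The median was −1.29, beside −0.16 for all genes.

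On the 4-miRNA array 8 of 9 genes were lower than in the day 7 control, against 60.9% of all genes, and 4 at least 2-fold lower, against 4.15%. FCGBP stood at −1.36 (2337 against 6057), CLCA1 at −1.31, MUC2 at −1.05 and TFF3 at −1.03. TFF1 was the exception at 0.16 (2239.8 against 2002), joined by SPINK4 at 0.03 when arrays were scaled to a common median. ZG16 stood at −0.86, REG4 at −0.84 (0.28 by its dim probe set), AGR2 at −0.47 and SPINK4 at −0.25. The median was −0.86, beside −0.15 for all genes. In neither comparison was a gene of the 9 at least 2-fold higher, against 6.19% of all genes for the 2-miRNA array and 5.63% for the 4-miRNA array. At those shares such counts are no result about the products.

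Brightness moves with these values, most of all for probe sets of high signal. GAPDH and ACTB, usual loading genes, were lower on the 4-miRNA array than in the day 7 control by 1.06 and 0.69 in log2 after scaling. Running-median centring, which sets each array's median difference to 0 at every signal level, gave −0.10 for AGR2, −0.54 for REG4 and −0.66 for ZG16 on the 4-miRNA array. On the 2-miRNA array it gave −0.15 for AGR2, −0.60 for REG4 and −1.32 for ZG16. Values of the less bright genes moved less. With this centring CLCA1 stood at −1.25, FCGBP at −1.31, TFF3 at −0.96 and MUC2 at −0.95 on the 4-miRNA array, the last 2 then within 2-fold. On the 2-miRNA array CLCA1 stood at −1.24, FCGBP at −1.77, TFF3 at −1.64 and MUC2 at −1.17, all still at least 2-fold lower. With no scaling between arrays, an alternative chosen after seeing the data, the median of all genes stood at 0.76 on the 4-miRNA and 0.72 on the 2-miRNA array relative to the day 5 control, so the products are then read against that shift. As deposited, 1 of the 9 products (CLCA1) was lower on the 4-miRNA array than in the day 5 control and 2 (FCGBP and CLCA1) on the 2-miRNA array. MUC2, REG4 and SPINK4 were then higher than in the day 5 control on both miRNA arrays. Against the day 7 control, 4 products (TFF3, MUC2, FCGBP and CLCA1) were lower on the 4-miRNA array as deposited, and 6 on the 2-miRNA array, all but REG4, SPINK4 and AGR2. With no scaling, the median of all genes relative to the day 7 control was 0.80 on the 4-miRNA and 0.76 on the 2-miRNA array. The share of all genes lower as deposited was not computed, so these counts have no background beside them. For each product that turned in a comparison, the direction there rests on the scaling. Between the miRNA arrays all 9 products kept their direction as deposited, and so did all 9 between the controls.

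**Figure D4:**
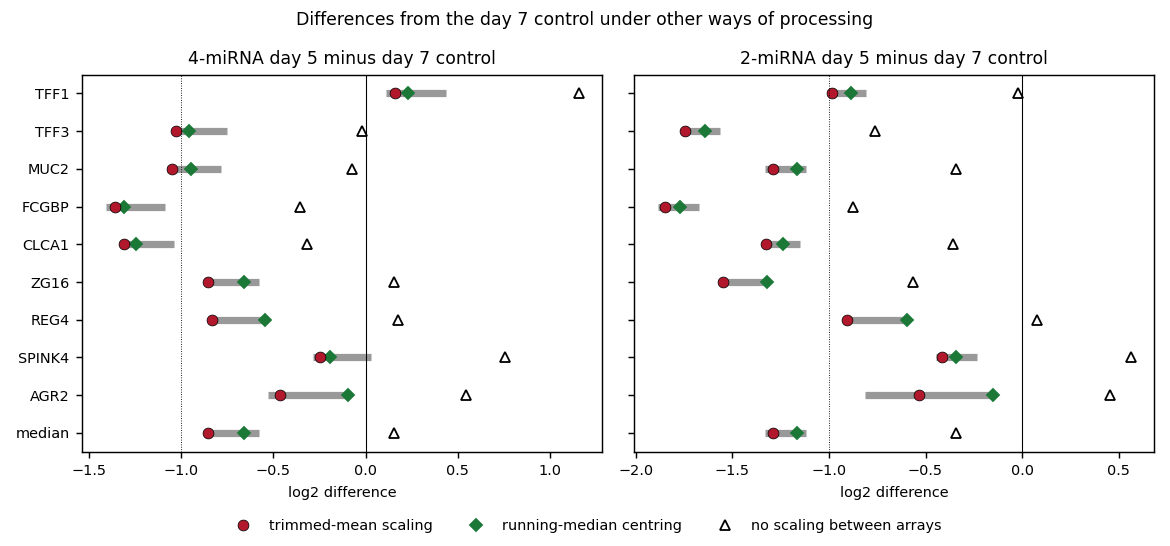
Log2 difference of each gene, and of their median, from the day 7 control on the 4-miRNA array (left) and the 2-miRNA array (right). Red circles are trimmed-mean scaling, green diamonds running-median centring and grey bars the range over 8 alternatives (the median without a filter includes TFF2), open triangles are no scaling between arrays, and there is a dotted line at 2-fold lower. AGR2 and REG4, among the brightest genes, move closer to 0 with centring than CLCA1 and FCGBP do.

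Genes that direct, glycosylate, fold and release these products were examined as lists. Of 13 measured goblet cell transcription factor and Notch genes, 0 were at least 2-fold apart between the controls, where 3.35% of all genes were higher and 2.41% lower by that much, and the median was 0.18. At those shares a count of 0 is no result about this list. FOXA3 (0.73) and KLF4 (0.72), both factors of secretory or surface differentiation, stood highest there. ATOH1, the factor that commits cells to the secretory lineage, had 316 on the 4-miRNA and 222 on the 2-miRNA array, against 504 in the day 7 control and 505 in the day 5 control. It was thus lower by 1.08 on the 2-miRNA array than in either control, and by 0.62 on the 4-miRNA array. SPDEF, which drives goblet cell maturation, gave no single order: its brightest probe set had 573 on the 4-miRNA and 429 on the 2-miRNA array, against 428 in the day 7 control and 315 in the day 5 control. Its 5 probe sets disagreed in sign, with differences from the day 5 control of −0.22 to 0.80 on the 4-miRNA array, −1.24 to 0.41 on the 2-miRNA array and −0.60 to 0.51 in the day 7 control. CREB3L1, a membrane-bound factor of secretory cells, stood on the 4-miRNA array at −1.16 relative to the day 5 control and at −1.03 relative to the day 7 control. DLL4, a Notch ligand that lay under the median of the 2-miRNA array, was at least 2.16-fold lower there than in the day 7 control. FOXA1 was lower by 1.11 on the 4-miRNA array than on the 2-miRNA array, with its other probe set at −0.80. Relative to the day 5 control FOXA1 stood at −1.53 on the 4-miRNA array (other probe set −0.49) and −0.42 on the 2-miRNA array (0.31). DLL1, another Notch ligand, stood at −1.05 on the 4-miRNA array relative to the day 7 control, with its other probe set at −0.07. By the brightest probe sets, FOXA1 and CREB3L1 were at least 2-fold lower on the 4-miRNA array than in the day 5 control. This was 2 of 13 genes, against 6.7% of all genes. On the 2-miRNA array ATOH1, CREB3L1 and DLL4 were, 3 of 13 against 6.37%. The lower bound for DLL4 there was 1.72-fold. On either array 0 were that much higher.

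Of 14 other measured goblet cell genes, WFDC2, a secreted antiprotease-like protein, was higher on day 7 than on day 5 by 1.61 (1615 against 507). Its other probe set past the filter gave 0.30. CAPN8, a calpain protease, stood at 0.99 and was at least 2.08-fold higher on day 7, as it lay under the median of the day 5 control. Relative to the day 7 control WFDC2 stood at −1.68 on the 2-miRNA array (483 against 1615; other probe set −0.89) and was also lower on the 4-miRNA array (791 against 1615). SERPINA1, an antiprotease, stood at −1.11 on the 2-miRNA array there, with its other probe set at −0.47, and KLK1, tissue kallikrein with 1 probe set, at −1.04. By the brightest probe set of each gene, those 3 of 14 were at least 2-fold lower there, against 4.03% of all genes. By their other probe sets WFDC2 and SERPINA1 were within 2-fold. The list median was −0.38, beside −0.16 for all genes. BCAS1, a gene marking goblet cells, was at least 2.62-fold higher on the 4-miRNA array than in the day 5 control, where it lay under the array median. ERN2, the goblet cell form of the stress sensor IRE1, had 995 on the 4-miRNA and 923 on the 2-miRNA array, against 1067 in the day 7 control and 922 in the day 5 control.

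Enzymes that attach and extend mucin sugars had a median near 0 in every comparison, between 0.01 and 0.13 over 18 measured genes. Where a miRNA array was set against a control, the median of all genes was lower, at −0.15 to −0.16. GALNT3, which starts O-glycan chains, was higher than in the day 5 control by 1.25 on the 4-miRNA and by 1.09 on the 2-miRNA array. GCNT3, which branches them, was higher by 1.32 on the 4-miRNA and stood at 0.88 on the 2-miRNA array. GALNT6, another enzyme that starts chains, was lower than in that control, at −1.14 with 4 miRNAs and −1.21 with 2. ST3GAL4, a sialyltransferase, was at least 1.77-fold lower on day 7 than on day 5, from a dim signal.

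The 22 measured folding genes of the secretory pathway had a median of 0.09 between the controls. ERO1A, the oxidase that recharges disulfide isomerases, was higher by 1.85 on the 4-miRNA and 1.79 on the 2-miRNA array than in the day 5 control, though the lowest of its 3 probe sets gave 0.27 for the 4-miRNA array and 0.39 for the 2-miRNA array. DNAJC3 (1.05) and SEC61B (1.02) were also at least 2-fold higher on the 4-miRNA array, DNAJC3 with another probe set at −0.16. CRELD2 (−1.49) and SDF2L1 (−1.10), both partners of endoplasmic reticulum chaperones, were at least 2-fold lower. Of 13 measured granule traffic genes, MYRIP, a linker of Rab27 granules to myosin, was higher by 2.08 on the 4-miRNA and 2.10 on the 2-miRNA array than in the day 5 control. Its other probe set gave −0.30 for the 4-miRNA array and 0.06 for the 2-miRNA array. STX3, an apical membrane SNARE, stood at −1.34 on the 4-miRNA array, though the highest of its 3 probe sets gave 0.29. SYTL2, a Rab27 effector, stood at 1.17 on the 2-miRNA array, with its lowest probe set at −0.02. VAMP8, the granule SNARE of mucin release, had 6168 on the 4-miRNA and 6125 on the 2-miRNA array, against 6837 in the day 7 control and 6958 in the day 5 control.

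Among 6 measured other mucins, the median between the controls was 0.19. MUC20, a membrane mucin, was higher by 2.22 on day 7 than on day 5 by the brightest of its 4 probe sets and by 0.48 by the lowest of them. MUC5AC, the gel mucin of stomach and airway, had 133.2 on the 4-miRNA and 141 on the 2-miRNA array, against 199.97 in the day 7 control and 217 in the day 5 control. MUC5B, MUC6 and MUC15 did not pass the filter. Paneth cell products, from the other granule-filled cell of the crypt, were mixed: DEFA5, a defensin, had 920.3 on the 4-miRNA and 1018 on the 2-miRNA array, against 1833 in the day 7 control and 3224 in the day 5 control, while LYZ, lysozyme, had 462 on the 4-miRNA and 489.6 on the 2-miRNA array, against 144 in the day 7 control and 111 in the day 5 control.

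The medians of the absorptive enterocyte markers and the goblet cell products had the same sign in some comparisons and opposite signs in others. Relative to the day 5 control the signs were opposite. The absorptive median was 0.51 on the 4-miRNA array, beside −0.34 for the products, and 0.14 on the 2-miRNA array, beside −0.51. In the comparisons that follow the signs were the same. Of 8 measured absorptive genes, all had a difference above 0 between the controls (49.3% of all genes did), with a median of 1.32 beside −0.01 for all genes. Between the miRNA arrays 6 of 8 lay above 0 (50.8% of all genes did), with a median of 0.37 beside 0.00. On the 2-miRNA array all 8 were lower than in the day 7 control (61.1% of all genes were), with a median of −0.96 beside −0.16. The 10 colon epithelium markers were higher on day 7 as well, all 10 with a median of 0.32, and 8 of 10 were lower on the 2-miRNA array than in the day 7 control, with a median of −0.35, nearer to that of all genes. The part of these genes in the values of the goblet cell products was not tested.

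**Figure D5:**
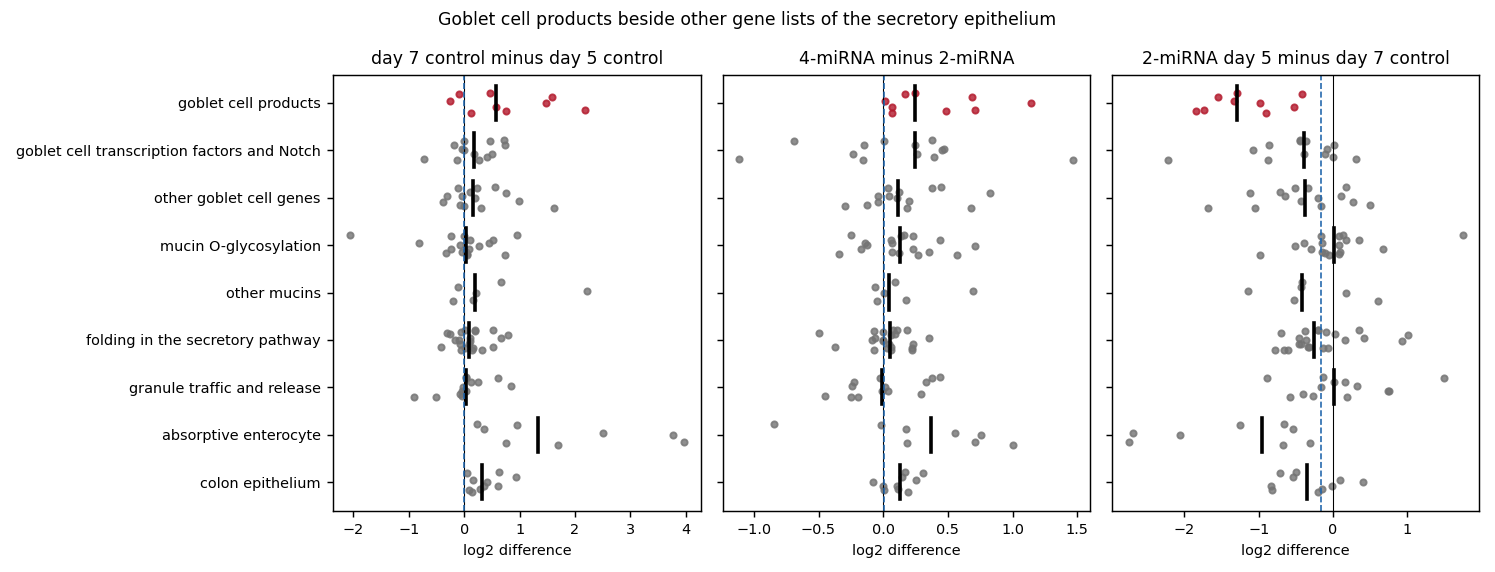
Log2 difference of every measured gene (points) and list median (black bars) for the goblet cell products and 8 other lists, in 3 panels: day 7 over day 5 control, 4-miRNA over 2-miRNA, and 2-miRNA over day 7 control. The blue dashed line is the median of all genes. The median of the goblet cell products is 0.58, 0.24 and −1.29, and the absorptive enterocyte list lies on the same side of 0 in all 3.

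For each product whose log2 range over the arrays reached 1, the 5 genes with the most similar profile over the 4 arrays were found, by the root mean square difference of log2 levels centred on each gene's mean. For TFF1 these were SLC44A4, a choline transporter (0.05), GPR137 (0.07), HSD17B2, a steroid dehydrogenase (0.12), CDA (0.16) and ADD2 (0.17), and 10 genes lay within 0.2. For ZG16 they were WFDC2 (0.06), CYRIA (0.08), ZNF784, ST3GAL3 (both 0.11) and APOBR (0.12), with 17 genes within 0.2. TFF3 had 1 gene within 0.2, CHP2 (0.20), followed by ZG16 (0.22), ERICH4, SLC29A4 and WFDC2 (each 0.23). FCGBP had 23 genes within 0.2, the nearest being LAMB2P1 (0.08), SSC4D (0.09), TMEM61 (0.10), ADAM22 (0.12) and LRRC43 (0.15). CLCA1 had 61, the nearest EPN1 (0.07), NES, CCM2, ALLC and CHD7 (each 0.10). MUC2 had 319, so its profile was common: MIR1915HG (0.03), PKD2L1, APOB and TOP3A (each 0.04) and PPM1K (0.05). Many of these genes are dim, and with 4 arrays a similar profile is a description only. Among the products themselves the closest pairs were MUC2 with REG4 (0.15), MUC2 with FCGBP (0.20) and TFF3 with ZG16 (0.22).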

How the data were processed

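Total RNA from T84 cells was hybridised to 4 arrays, 1 a group. The authors deposited 1 intensity for each of 54675 probe sets per array. MAS5 gave these values, per the submitters' processing notes, and its scaling was not given in the sources used here. Each array was multiplied so that its mean without the top and bottom 2% of probe sets was 500, and log2 was taken after adding 32. Probe sets with 1 gene symbol (41097, of which 41043 matched the NCBI gene table by ID) were used, 1801 with several symbols were left out and 11777 were unnamed. Probe sets entered when their mean log2 was at least the median of all or when 1 array reached its 75th percentile, and the brightest represented its gene. Differences were counted at 2-fold. Every product was named, and up to 4 genes of each other list past 2-fold in a comparison. A gene under the median of 1 array has a lower bound, the brighter signal over that median. These bounds are ratios of scaled signal without the added 32, so they can exceed the fold from the log2 difference. The code was tested on simulated data. The products and lists were chosen with earlier results of these data known. Python 3.11.15, numpy 2.4.6 and pandas 2.3.3 were used.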

Additional observations from a re-analysis of the deposited data

How the results depend on the processing

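Each value was recomputed under 8 alternatives: quantile normalization, running-median centring, scaling to a common median, offsets of 8 and 100, no filter, a 70th percentile filter, and the median over probe sets. Of 432 values of single products, 431 stayed within the probe set SD of the comparison. The value that moved further was AGR2 between the miRNA arrays, 0.28 with the median over probe sets. No difference of 2-fold or more changed sign. Not all of these values were free to move. Both filter alternatives kept each product's brightest probe set, so their 54 values each were the same by construction. The median over probe sets could move only REG4 and AGR2, the measured products with more than 1 probe set. The median of the products between the controls was 0.47 with quantile normalization and 0.76 with the median over probe sets. For the 4-miRNA array against the day 5 control it was −0.062 with common-median scaling and −0.11 with no filter, which adds TFF2, and for the 2-miRNA array it was −0.24 with no filter. For the 4-miRNA array against the day 7 control it was −0.66 with running-median centring and −0.58 with common-median scaling, and 2 products, not 4, were at least 2-fold apart in both. Common-median scaling left 1 such product on the 2-miRNA array against the day 5 control, and put the median between the miRNA arrays at 0.34. It moved the median of all genes to 0.12 on the 4-miRNA array against the day 5 control. The share of higher genes among those 2-fold apart there was 54.5%, against 80.8% with common-median scaling and 66.6% with running-median centring. For the 2-miRNA array these shares were 56.0%, 75.6% and 66.7%, and against the day 7 control they were 57.6%, 81.8% and 71.9% for the 4-miRNA array and 60.6%, 77.5% and 71.5% for the 2-miRNA array. With no scaling between arrays, chosen after seeing the data, the median of the products was 0.62 on the 4-miRNA and 0.42 on the 2-miRNA array against the day 5 control. Against the day 7 control it was 0.15 on the 4-miRNA and −0.34 on the 2-miRNA array. There 1 product was at least 2-fold higher and 0 lower on the 4-miRNA array, where 4370 of 12254 genes were higher and 50 lower. On the 2-miRNA array 0 products were at least 2-fold higher or lower, where 4154 genes were higher and 59 lower. The median of all genes was then 0.76, 0.72, 0.80 and 0.76 in the same comparisons. Common-median scaling gave 1562 genes higher and 371 lower on the 4-miRNA array against the day 5 control, beside 985 and 822. Between the controls, 411 were higher and 296 lower, against 1485 and 1331 with no filter, 148 and 43 with the 70th percentile filter, and 206 and 113 with an offset of 100. No paired analysis was possible because each group had 1 array. Low signal left TFF2 unmeasured.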
